A study of Bos taurus with 20 samples.

Results

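The genes described here encode the constitutive proteasome of bovine neck muscle. Members were all array probes whose gene name or description carries a PSMA, PSMB, PSMC, PSMD or PSMG symbol with a number, or PSME3, PSME4, PSMF1 or POMP, with the inducible subunits PSMB8, PSMB9 and PSMB10 left out and the probe of highest mean signal kept for each gene. This gave 39 genes out of 11367 named genes tested: 15 of the 20S core, 20 of the 19S cap and 4 activators, inhibitors and maturation factors. All 39 were tested, and 37 of them were well above background on all 20 arrays. The exceptions were PSMB1, on 12 arrays, and PSMA8, on 14. Of the 42 probes that matched, 37 carried an accession or gene number that names the same gene in RefSeq, and 1 carried an accession for another gene and was kept apart.

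Neck muscle of 10 cattle was taken at slaughter. The 5 control animals (K3, K6, K8, K9 and K10) had no growth promoter named in the labels. The 5 treated animals (DE27, DE29, DE30, DE31 and DE32) were given dexamethasone, which acts on the glucocorticoid receptor, as an oral dose of 0.4 mg each day over 31 days. They also had estradiol, an oestrogen, as 6 weekly intramuscular doses of 5 mg each. Muscle of every animal, control and treated, was kept in vacuum packs at 4 °C and gave 1 sample at day 0 and 1 at day 14, so that 20 one-colour arrays fell into 4 groups of 5. Neither drug was given alone, so the labels describe only their combination, and the age of the animals is not given in the sources used here.

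The proteasome is the protease of the cytosol and nucleus that degrades proteins marked with ubiquitin. Its 20S core is a barrel of alpha rings, which gate the entrance, and beta rings, of which PSMB5, PSMB6 and PSMB7 carry the active sites. The 19S cap binds ubiquitin chains, removes them and unfolds the substrate with a ring of ATPases. In skeletal muscle this pathway degrades myofibrillar proteins, glucocorticoids are known to raise its activity during wasting, and it has been studied as one of the protease systems of meat ageing.

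Values are log2 signal centred on the 75th percentile of each array, and differences between groups are log2 fold changes with the standard error (SE) of a limma fit over 15430 probes. A gene passed a comparison when its p, adjusted by Benjamini-Hochberg over all these probes, was under 0.05. All 10 tested skeletal muscle markers were well above background on every array. The 75th percentile of signal fell in 10 of 10 animals during storage, by 1.03 on average on the log2 scale, and centring removes this overall drop. Changes over storage are thus relative to the rest of each array, and a rise smaller than 1.03 can be a loss of signal before centring. In whole muscle, fewer cells of a type and less RNA per cell cannot be told apart.

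The proteasome genes differed between the storage days, which are largely tied to slide, as described below. Across all animals 26 of the 39 genes fell between day 0 and day 14 and 2 rose, in a comparison where 23.1% of all tested probes fell and 31.6% rose. The median change of the 39 genes was -0.69, against 0.10 over all tested probes. Centring on the median of each array instead moved the latter to -0.21 and the former to -1.01, with 34 genes that fell and 1 that rose (38.3% and 17.7% of all probes). After normexp background correction these medians were 0.48 and -0.64, with 31 genes that fell and 4 that rose (17% and 53.3% of all probes). In control animals 24 genes fell and 1 rose (17.3% and 21.8% of all probes), with a median of -0.79. In treated animals 16 fell and 1 rose (11.6% and 18.1% of all probes), with a median of -0.58. With the animal as a block, 24 fell and 1 rose in control (15.4% and 20.2% of all probes), 13 fell and 1 rose in treated (9.59% and 16.3%), and 26 fell and 2 rose in all animals (22.6% and 31.2%). The 3 calls lost under that block in treated animals were POMP (adjusted p = 0.066), PSMD13 (0.0589) and PSMD5 (0.0821). The largest falls in all animals were in PSMD14 (-1.46 ± 0.18 SE), PSMA1 (-1.38 ± 0.18), PSMA4 (-1.18 ± 0.20), PSME3 (-1.15 ± 0.17) and PSMA5 (-1.09 ± 0.14).

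The 3 genes of smallest p over storage were PSMA7, which rose and is described with the alpha ring, PSMD14 and PSMA5. PSMD14 encodes the deubiquitinase of the 19S lid that cuts ubiquitin chains from the substrate. In control animals, listed as K3, K6, K8, K9 and K10, its signal was 11.99, 11.30, 11.78, 11.06 and 11.23 at day 0 and 10.22, 9.94, 9.80, 9.24 and 10.72 at day 14. In treated animals, listed as DE27, DE29, DE30, DE31 and DE32, it was 11.53, 11.18, 11.41, 11.64 and 11.46 at day 0 and 10.58, 10.03, 10.48, 9.50 and 9.54 at day 14. Every day 14 array was below every day 0 array, in both treatments together. The fall was 2.74-fold over all animals (-1.46 ± 0.18, lower in 10 of 10, limma adjusted p = 2.55e-06), -1.49 ± 0.28 in control and -1.42 ± 0.24 in treated animals.

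PSMA5 encodes an alpha ring subunit. Its signal in control animals, in the same order, was 13.70, 13.03, 13.22, 12.99 and 13.30 at day 0 and 12.17, 11.95, 12.09, 11.56 and 12.60 at day 14. In treated animals it was 13.09, 12.99, 13.02, 13.01 and 13.33 at day 0 and 12.57, 11.87, 12.31, 11.81 and 11.85 at day 14. The days did not overlap, and the smallest loss was that of DE27. The fall was 2.13-fold (-1.09 ± 0.14, lower in 10 of 10 animals, limma adjusted p = 2.62e-06).

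**Figure D1:**
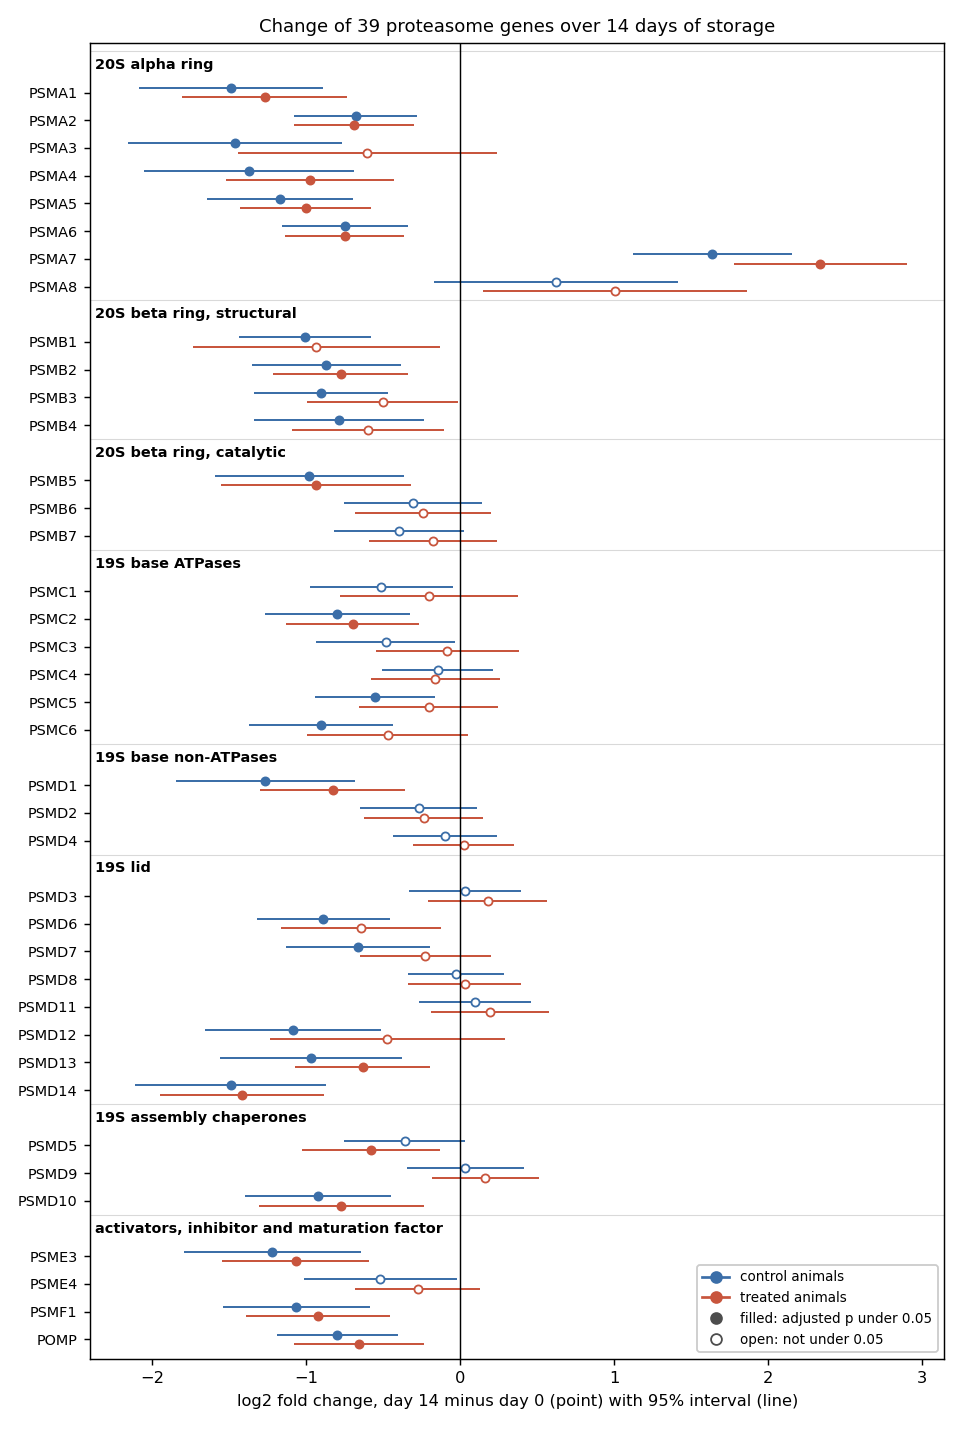
Log2 fold change from day 0 to day 14 for the 39 genes, grouped by role, in control (blue) and treated (red) animals, n = 5 each; points are fold changes, lines 95% intervals, and filled points have an adjusted p under 0.05. Most alpha ring genes lie left of 0 in both treatments, PSMA7 lies far right of it, and PSMD3, PSMD4, PSMD8, PSMD9 and PSMD11 lie at it. PSMB1 in control animals at day 14 was not well above background on any array.

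The separation by day seen for PSMD14 and PSMA5 held for 9 genes in all: PSMA1, PSMA2, PSMA5, PSMA6, PSMB2, PSMC2, PSMD14, PSME3 and PSMF1. Among all probes without a missing value 3.69% showed it. Lower values at day 14 in all 10 animals were found for 14 genes and for 9.78% of all probes. By animal, between 29 and 38 of the 39 genes were lower at day 14 in 9 of the animals. DE27 was the exception, with 19 of 39 lower and a median change of 0.054. K10 had the next smallest median change, at -0.22. The day 0 arrays of DE27 and K10 were on the same slide, so animal and slide cannot be told apart here. Without DE27, 30 genes fell over all animals (25.3% of all probes) and 21 in treated animals (15.3%). The treated count leaned on single animals: it was 6 without DE29 (5.61% of all probes), 7 without DE31 (5.49%) and 4 without DE32 (5.5%). The control count was 17 without K9 (9.38%) and 26 without K10 (18.7%), with the other animals between.

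Slides held mostly 1 day each, so storage and slide are largely tied. Slides 1 and 3 held only day 0 arrays and slides 2 and 4 only day 14 arrays. With the slide as a fixed term, the change in control animals rests on slide 6 and that in treated animals on slide 5. Slide 6 holds 1 control array of day 0 (K10) and 2 of day 14 (K3 and K8), and slide 5 holds both days of 1 treated animal, DE32. The day 0 array of DE27 is also on slide 6. In that fit no gene fell in either treatment (0.233% and 0% of all probes), against 24 and 16 without the term. Over all animals 6 fell (PSMD14, PSMA5, PSMA1, PSMA2, PSMD5 and PSMF1) and PSMA7 rose, in a fit where 5.28% of all probes fell and 9.48% rose. The median change in these fits was -0.56 in control, -0.91 in treated and -0.58 in all animals. Within scan sessions 1 and 2 the median difference between the days over all animals was -0.61 and -0.78. Session 3, which is slide 6, gave -0.52 and holds no animal with both days and no treated array of day 14.

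The alpha ring forms the gated end plates of the 20S core. Of its 8 genes on the array 6 fell over all animals and 2 rose (23.1% and 31.6% of all tested probes), with a median of -0.89. PSMA1, PSMA4, PSMA5, PSMA6 (-0.75 ± 0.12) and PSMA2 (-0.68 ± 0.11) were lower in 10 of 10 animals. PSMA1, the second largest fall, went from between 12.25 and 12.92 at day 0 to between 10.33 and 12.05 at day 14.

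PSMA3 was the most uneven of the alpha genes that fell. Its signal in control animals was 11.67, 11.66, 11.61, 11.52 and 10.64 at day 0 and 9.90, 10.62, 9.27, 9.41 and 10.58 at day 14. Treated animals gave 9.50, 11.28, 11.54, 11.66 and 10.88 at day 0 and 10.85, 10.53, 10.46, 10.21 and 9.79 at day 14. K10 and DE27, whose day 0 arrays shared slide 6, started low, and DE27 ended higher than it started. The change was -1.46 ± 0.31 in control animals (limma adjusted p = 0.00506) and -0.60 ± 0.38 in treated animals (adjusted p = 0.254).

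PSMA7 went the other way on the probe chosen for it. In control animals its signal was 5.88, 6.06, 6.83, 6.86 and 6.27 at day 0 and 7.91, 7.69, 7.87, 8.437 and 8.17 at day 14. In treated animals it was 6.93, 6.15, 6.997, 6.21 and 6.20 at day 0 and 8.441, 8.83, 9.36, 9.07 and 8.47 at day 14. All day 14 arrays were above all day 0 arrays, a pattern that 4.9% of all probes showed. The rise was 3.96-fold over all animals (1.99 ± 0.19, higher in 10 of 10, limma adjusted p = 7.42e-08), 1.64 ± 0.23 in control and 2.34 ± 0.25 in treated animals.

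The identity of the transcript behind that rise is not settled by the annotation. A further probe on the array carries a PSMA7 accession with a PSMA8 description, and was kept out of the members for that reason. In control animals it gave 11.36, 11.60, 11.94, 11.46 and 10.35 at day 0 and 10.22, 10.00, 10.02, 9.79 and 10.77 at day 14. In treated animals it gave 10.85, 11.46, 11.98, 11.83 and 11.86 at day 0 and 10.57, 10.33, 11.04, 10.09 and 10.08 at day 14. It fell 2.26-fold over all animals (-1.18 ± 0.20, limma adjusted p = 5.35e-05), and K10 was the single animal in which it was higher at day 14. The probes that name PSMA7 thus moved in opposite directions, and so did the probes that name PSMA8. By description alone the further probe would stand for PSMA8, as its mean signal was 10.88 against 4.48 for the PSMA8 probe used. The rise of PSMA8, and its place among the 2 genes that rose, thus depend on leaving that probe out. PSMA8, the testis-specific alpha subunit, passed as higher over all animals (0.81 ± 0.27, adjusted p = 0.0169), but its probe was not well above background on 6 of 20 arrays and it was higher in only 6 of 10 animals. Without DE31 it did not pass (0.69, adjusted p = 0.0548), and with the slide as a block its value was -0.32.

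**Figure D2:**
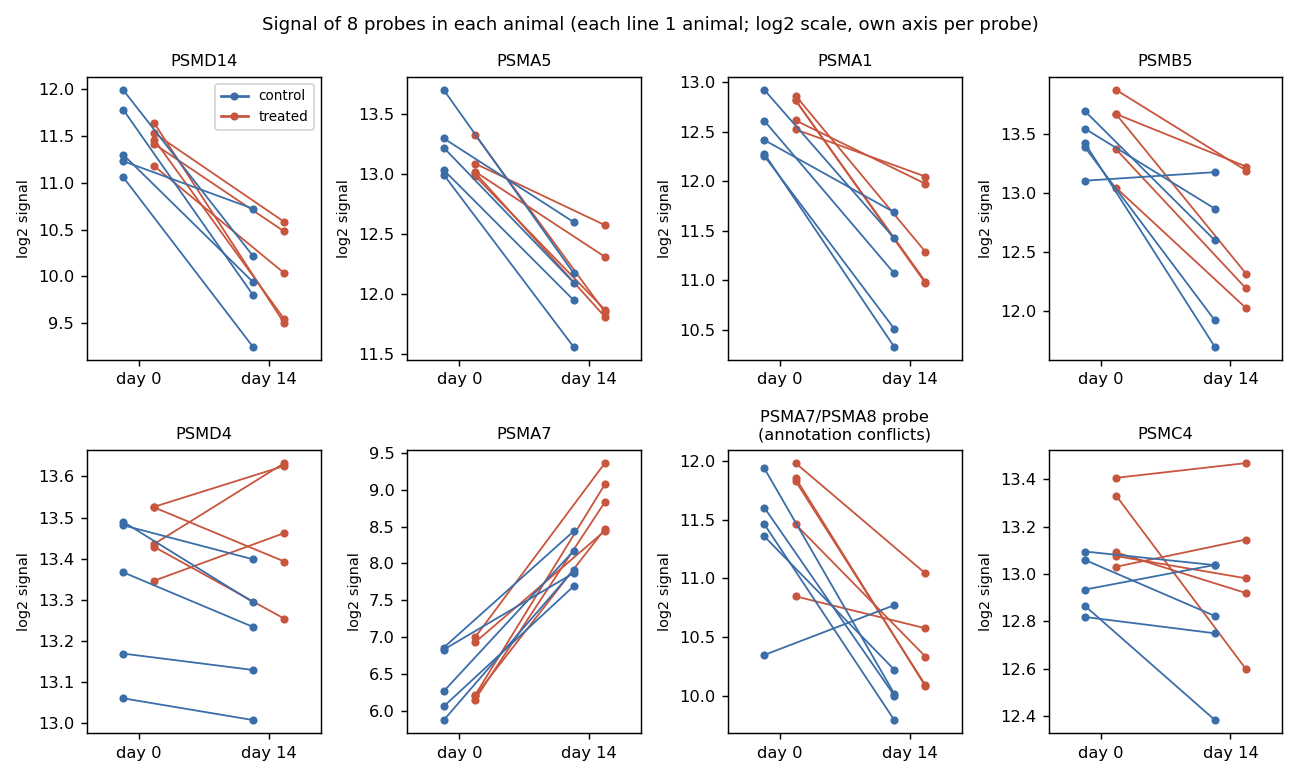
Log2 signal of 8 probes at day 0 and day 14, each line 1 animal (blue control, red treated) and each panel with its own axis. PSMD14, PSMA5 and PSMA1 fall in all 10 animals. PSMD4 falls slightly in every control animal and is mixed in treated animals, and PSMC4 is mixed in both treatments. PSMA7 rises in all 10, and the probe with conflicting PSMA7 and PSMA8 annotation falls in all animals but K10.

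The beta ring holds the active sites and the structural subunits around them. All 4 structural genes fell over all animals (23.1% of all tested probes), with a median of -0.76. They were PSMB1 (-0.97 ± 0.21), PSMB2 (-0.82 ± 0.14), PSMB3 (-0.70 ± 0.15) and PSMB4 (-0.69 ± 0.16). The PSMB1 probe was near background, well above it on 5 of 5 arrays in each day 0 group but on 0 of 5 control and 2 of 5 treated arrays at day 14. It met the filter of at least 5 arrays only through day 0, where it was high. Its call as lower, and its place among the 26 genes that fell, carry that limit. Its day 0 mean in control animals, 4.48, was at least 1.86-fold above the background bound of the day 14 arrays, and its measured day 14 mean was 3.47. After background correction by normexp the same control comparison had the opposite sign, at 0.80.

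PSMB5, the chymotrypsin-like active subunit, fell 1.94-fold over all animals (-0.96 ± 0.20, limma adjusted p = 0.000415). Its signal in control animals was 13.55, 13.42, 13.70, 13.39 and 13.11 at day 0 and 12.87, 11.70, 12.60, 11.92 and 13.18 at day 14. Treated animals had 13.88, 13.05, 13.67, 13.37 and 13.67 at day 0 and 13.19, 12.02, 13.23, 12.19 and 12.32 at day 14. K10 alone was not lower at day 14, and the days overlapped.

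PSMB6, the caspase-like active subunit, did not pass (-0.27 ± 0.13, limma adjusted p = 0.0888). Its signal was 14.04, 13.49, 13.55, 13.47 and 13.33 in control animals at day 0 and 13.49, 13.46, 13.21, 12.71 and 13.47 at day 14. The treated values were 13.66, 13.37, 13.51, 13.36 and 13.53 at day 0 and 13.71, 13.17, 13.54, 12.81 and 12.97 at day 14. The 2 days overlapped in both treatments.

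PSMB7, the trypsin-like active subunit, had a similar small value that did not pass (-0.29 ± 0.13, limma adjusted p = 0.0592). It was at 14.87, 14.47, 14.69, 14.44 and 14.39 in control animals at day 0 and at 14.41, 13.80, 14.26, 13.85 and 14.56 at day 14. The treated values were 14.43, 14.79, 14.67, 14.70 and 14.58 at day 0 and 15.01, 14.31, 14.45, 14.33 and 14.17 at day 14. DE27 and K10 were higher at day 14 and the other animals lower. The difference between PSMB5 and the other active subunits was not tested.

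In the base of the 19S cap, 6 ATPases unfold the substrate. Of these, PSMC2 (-0.75 ± 0.14), PSMC6 (-0.69 ± 0.16) and PSMC5 (-0.38 ± 0.13) fell over all animals, with a group median of -0.37. PSMC1 (-0.36 ± 0.17), PSMC3 (-0.28 ± 0.15) and PSMC4 (-0.16 ± 0.11) did not pass. Of the base subunits that are not ATPases, PSMD1, a large scaffold, fell 2.07-fold (-1.05 ± 0.17, lower in 10 of 10 animals). Its scaffold partner PSMD2 (-0.25 ± 0.11) and the ubiquitin receptor PSMD4 (-0.04 ± 0.09) did not pass. For PSMD4 the 95% interval ran from -0.23 to 0.15, and it was at 13.06, 13.17, 13.48, 13.37 and 13.49 in control animals at day 0 and at 13.01, 13.13, 13.40, 13.23 and 13.29 at day 14. In treated animals PSMD4 was at 13.44, 13.43, 13.35, 13.53 and 13.52 at day 0 and at 13.63, 13.25, 13.46, 13.63 and 13.39 at day 14. It thus ranged from 13.01 to 13.63 over all arrays.

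The lid docks onto the base and carries PSMD14. Of its 8 genes 5 fell over all animals (23.1% of all tested probes), with a median of -0.61. They were PSMD14, PSMD13 (-0.80 ± 0.17), PSMD12 (-0.78 ± 0.23), PSMD6 (-0.77 ± 0.15) and PSMD7 (-0.45 ± 0.14). PSMD3 (0.10 ± 0.11) and PSMD11 (0.14 ± 0.11), both structural lid subunits, and PSMD8 did not pass, and the interval of PSMD8 was -0.19 to 0.19. A further probe for PSMD12 also fell (-0.48 ± 0.12). PSMD7, the inactive partner of PSMD14, was at 13.47, 12.99, 12.98, 13.07 and 13.06 in control animals at day 0 and at 12.78, 11.81, 12.49, 12.34 and 12.84 at day 14. Treated animals gave 12.69, 13.26, 13.02, 13.02 and 13.10 at day 0 and 12.98, 12.54, 13.09, 12.95 and 12.39 at day 14. PSMD7 was lower at day 14 in all 5 control animals and in 3 of 5 treated animals.

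Of the chaperones that assemble the base, PSMD10 (-0.85 ± 0.16) and PSMD5 (-0.47 ± 0.13) fell in 10 of 10 animals, and PSMD9 (0.10 ± 0.10) did not pass. All 4 genes outside core and cap fell over all animals (23.1% of all tested probes). PSMF1, an inhibitor of the 20S core, fell 1.99-fold (-0.996 ± 0.146), with a day 0 range of 9.80 to 10.60 and a day 14 range of 8.53 to 9.67. PSME3, which encodes the nuclear activator REG gamma, fell 2.21-fold (-1.15 ± 0.17), and its further probe fell too (-0.77 ± 0.19). POMP, the maturation factor of the core, fell 1.66-fold (-0.73 ± 0.12).

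PSME4, the activator PA200, fell least of these (-0.40 ± 0.14, limma adjusted p = 0.0205). Its signal in control animals was 11.47, 11.28, 11.81, 11.51 and 11.60 at day 0 and 11.24, 10.39, 11.08, 10.76 and 11.61 at day 14. Treated animals had 11.58, 11.61, 11.92, 11.83 and 11.76 at day 0 and 11.50, 11.18, 11.94, 11.46 and 11.23 at day 14. It did not pass within either treatment alone, at -0.52 ± 0.22 in control and -0.28 ± 0.18 in treated animals.

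Bright probes fell more often than dim ones on these arrays, and most proteasome probes are bright. When tested probes were cut into 10 equal bins by mean signal, 30.6% of all probes of the brightest bin fell, as did 12 of its 21 proteasome genes. In bins 9 and 8, the next brightest, 31.6% and 29.6% of all probes fell, as did 6 of 7 and 5 of 5 proteasome genes. The median change was -0.13 over all probes of the brightest bin and -0.45 over its proteasome genes. The dimmer bins held only 6 proteasome genes, of which 3 fell and 2, PSMA7 and PSMA8, rose.

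**Figure D3:**
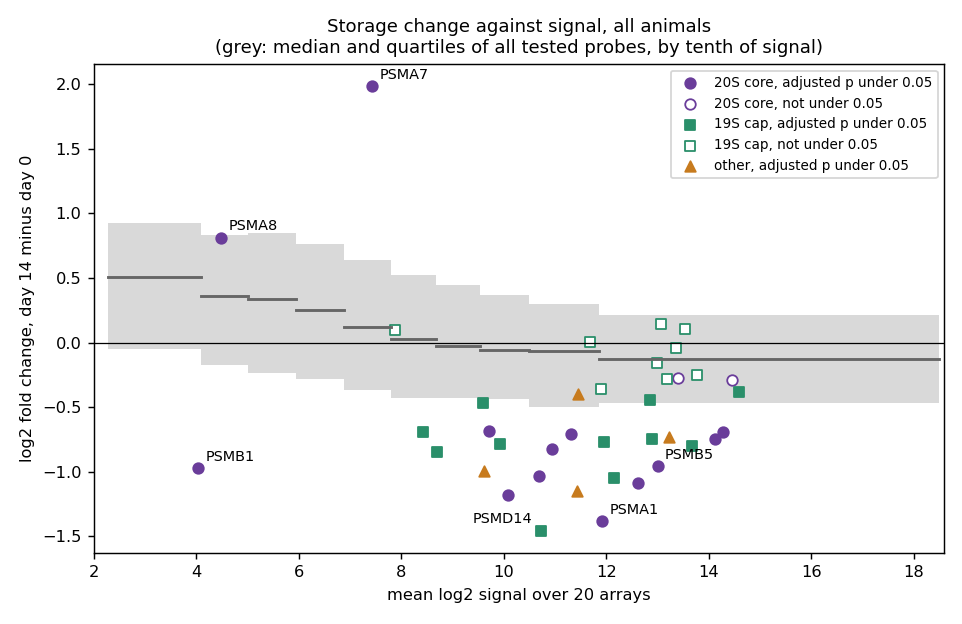
Log2 fold change from day 0 to day 14 in all animals (10 per day) against mean log2 signal for the 39 genes (circles 20S core, squares 19S cap, triangles others; filled where the adjusted p was under 0.05). Grey bands and lines give the quartiles and median of all 15430 tested probes in 10 equal bins of signal; most filled points lie below the lower quartile at their signal, and PSMA7 lies above the upper one.

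Markers of other cell types moved with storage too. Over all animals 31.6% of all tested probes rose and 23.1% fell. In the same comparison 6 of 7 tested endothelial, 6 of 6 smooth muscle and pericyte, 3 of 4 erythrocyte and 3 of 10 leukocyte markers rose, while 3 of 6 fibroblast and 2 of 5 adipocyte markers fell. The leukocyte share was near that of all probes. None of 5 nerve markers passed. The summed endothelial signal was between 13.7 and 14.6 on day 0 arrays and between 14.4 and 15.9 on day 14 arrays. The summed smooth muscle signal was between 14.03 and 14.98 at day 0 and between 13.9 and 16.6 at day 14. For fibroblast markers the range was 14.7 to 16.1 at day 0 and 12.99 to 16.4 at day 14. Day 0 and day 14 ranges were 11.7 to 13.4 and 11.1 to 12.9 for adipocyte, 10.9 to 14.9 and 11.1 to 15.6 for erythrocyte, 10.04 to 11.6 and 10.2 to 12.1 for leukocyte and 10.8 to 12.4 and 10.8 to 12.98 for nerve markers. All endothelial, smooth muscle and fibroblast markers were well above background on every array, as were 9 to 11 of 13 leukocyte and 1 to 5 of 6 adipocyte markers. Skeletal muscle markers were mixed, with 4 of 10 higher and 2 lower, near the shares of all probes. The part of these shifts and of the drop in signal in the proteasome result was not tested.

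The 20S core and the 19S cap were then set side by side. In all animals 11 of 15 core genes fell and 2 rose, with a median of -0.75, and 11 of 20 cap genes fell and none rose, with a median of -0.41. Of all tested probes 23.1% fell and 31.6% rose in that comparison. In control animals the medians were -0.87 for the core and -0.53 for the cap, and in treated animals -0.69 and -0.23. Averaged per animal over all genes, however, the core changed by -0.54 ± 0.32 (SD, n = 10) and the cap by -0.46 ± 0.30. The difference of these means was -0.076 ± 0.16 and was negative in 6 of 10 animals. The probes of PSMA8 and PSMB1 were dim. That of PSMA7 was well above background on 20 arrays, but it rose while a further probe annotated in part to PSMA7 fell. Without PSMA7, PSMA8 and PSMB1 the core mean was -0.82 ± 0.42 and the difference was -0.36 ± 0.18, negative in 10 of 10 animals. Those 3 genes were set aside after their values were seen, so this is a description.

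**Figure D4:**
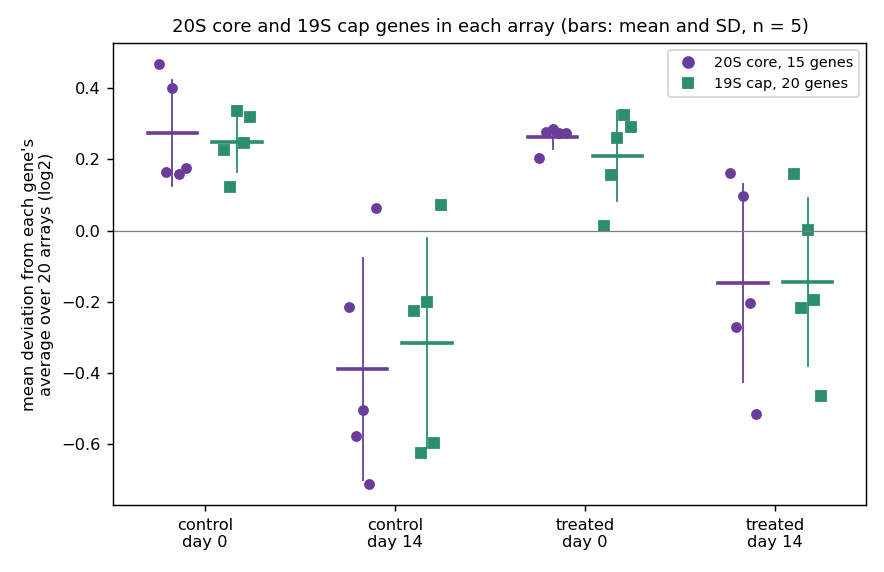
Mean deviation (log2) of the 15 core genes (circles) and 20 cap genes (squares) from each gene's average over 20 arrays, 1 point per array, with the mean and SD of each group (n = 5). Both sets are lower at day 14 in both treatments, core and cap ranges overlap in each group, and group means of the core are 0.27 and 0.26 at day 0 against -0.39 (control) and -0.15 (treated) at day 14.

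The treatment comparison asks whether dexamethasone with estradiol left a difference in these genes. At day 0 none of the 39 genes passed, in a comparison where 2.45% of all tested probes did. None had an unadjusted p under 0.05 either, against 17.3% of all probes. The median difference was 0.00195, against -0.014 over all probes, and 37 of the 39 intervals lay within a change of 1 on the log2 scale in either direction. The other 2 were PSMA3 (-0.45, interval -1.30 to 0.41) and PSMD12 (-0.38, interval -1.11 to 0.35).

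PSMD2 had the smallest p at day 0 (0.28 ± 0.13, limma adjusted p = 0.308). Its signal was 13.50, 13.74, 14.06, 13.79 and 13.70 in control animals and 14.07, 14.07, 13.99, 13.99 and 14.04 in treated animals. Only K8 reached the treated range. At day 14 PSMD2 was at 13.51, 13.23, 13.51, 13.31 and 13.88 in control and at 14.28, 13.61, 13.81, 13.78 and 13.50 in treated animals, which overlapped.

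PSMC4, an ATPase of the base, came next (0.23 ± 0.13, limma adjusted p = 0.397). At day 0 it was at 12.93, 12.82, 13.06, 12.87 and 13.10 in control and at 13.41, 13.08, 13.03, 13.09 and 13.33 in treated animals. At day 14 it was at 13.04, 12.75, 12.82, 12.38 and 13.04 in control and at 13.47, 12.98, 13.15, 12.92 and 12.60 in treated animals. The treatments overlapped at both days.

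PSMC5, also an ATPase, had the smallest p among the genes below 0 (-0.24 ± 0.15, limma adjusted p = 0.452). Its day 0 signal was 14.91, 14.77, 14.94, 14.88 and 15.02 in control and 14.24, 14.58, 14.79, 14.90 and 14.82 in treated animals. DE27 and DE29 lay below all controls. At day 14 it was at 14.39, 14.02, 14.53, 14.04 and 14.78 in control and at 14.84, 14.32, 14.73, 14.37 and 14.05 in treated animals.

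Next below 0 at day 0 were PSMD10 (-0.25 ± 0.18) and PSMC3 (-0.26 ± 0.20), and next above 0 was PSME4 (0.20 ± 0.14). The active subunits gave 0.09 ± 0.18 for PSMB5, -0.09 ± 0.15 for PSMB6 and 0.06 ± 0.14 for PSMB7. Their 95% intervals were -0.30 to 0.49, -0.43 to 0.25 and -0.24 to 0.37. Medians by role at day 0 lay between -0.17, in the ATPases, and 0.14, in the structural beta subunits.

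At day 14 again none of the 39 genes passed, and 0.0713% of all tested probes did. The median difference was 0.22, against 0.05 over all probes. Above 0 were 34 of the 39 genes and 8545 of the 15430 tested probes. Without single animals the median was between 0.14 (K9) and 0.29 (DE32). Cell type markers moved with it, though none passed: 9 of 10 skeletal muscle markers lay above 0 (median 0.51), and 0 of 6 fibroblast (-0.93), 0 of 6 smooth muscle (-0.68), 0 of 5 nerve (-0.70), 3 of 10 leukocyte (-0.32), 1 of 5 adipocyte (-0.31), 3 of 7 endothelial (-0.05) and 2 of 4 erythrocyte (0.03) markers did. The summed skeletal muscle signal at day 14 was between 19.98 and 20.3 in control and between 20.4 and 20.9 in treated animals, and the fibroblast signal was between 14.1 and 16.4 and between 12.99 and 15.3. Their part in the result was not tested. PSMA7 was the single gene with an unadjusted p under 0.05, against 10.5% of all probes (0.82 ± 0.23, limma adjusted p = 0.264). Its 5 treated animals were above all controls, though the lowest treated (8.441) and highest control (8.437) values nearly met. How many of all probes separate the treatments in this way was not counted. PSME4 (0.45 ± 0.25) and PSMD4 (0.26 ± 0.16) followed, both with overlapping groups. Below 0 were PSMD5 (-0.22 ± 0.18), PSMA6 (-0.08 ± 0.20), PSMD10 (-0.10 ± 0.27), PSMB6 (-0.03 ± 0.23) and PSMD8 (-0.03 ± 0.16). PSMB5 gave 0.14 ± 0.35 and PSMB7 0.28 ± 0.22. Within slides the median moved widely, at 0.61 on slide 2, 0.56 on slide 4 and -0.55 on slide 5.

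**Figure D5:**
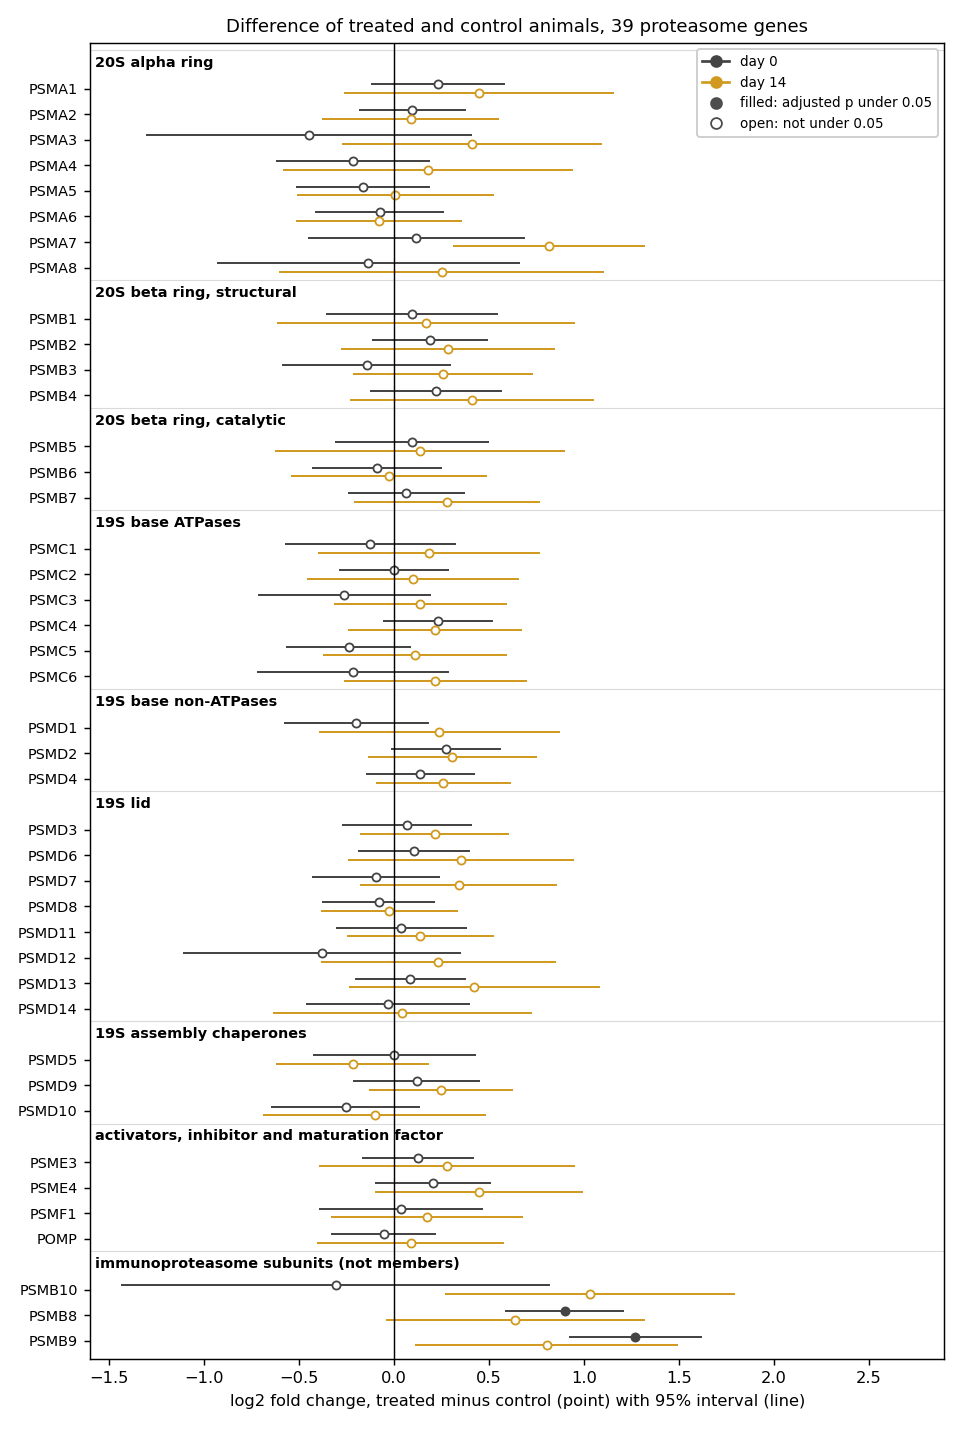
Log2 fold change of treated over control animals at day 0 (grey) and day 14 (yellow), n = 5 per group, for the 39 genes by role and, at the bottom, for the inducible subunits PSMB8, PSMB9 and PSMB10; points are fold changes, lines 95% intervals, and filled points have an adjusted p under 0.05. No proteasome gene above is filled, while PSMB8 and PSMB9 are filled at day 0.

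When the arrays of each animal were averaged over storage days, none of the 39 genes passed and 3.32% of all probes did, with a median of 0.09. An unadjusted p under 0.05 was found for 2 of the genes and for 19% of all probes. PSMA7 (0.47 ± 0.19, limma adjusted p = 0.214) and PSMD2 (0.29 ± 0.12, adjusted p = 0.223) had the smallest p above 0, followed by PSME4 (0.33 ± 0.16). PSMD10 (-0.18 ± 0.16), PSMD5 (-0.11 ± 0.14) and PSMA6 (-0.08 ± 0.13) had the smallest p below 0. The active subunits were at 0.12 ± 0.22 (PSMB5), -0.06 ± 0.16 (PSMB6) and 0.17 ± 0.13 (PSMB7).

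Whether storage acted differently in treated animals was tested as an interaction. No gene passed, and neither did any of the 15430 probes (limma, 0%), with 541 probes (3.51%) and none of the 39 genes at an unadjusted p under 0.05. The interaction was above 0 for 35 of the 39 genes and for 8446 of the 15430 probes. Over all probes the median was 0.04, and over the 39 genes it was 0.15. That median was 0.05 without DE27 and 0.29 without K10 or DE32. The smallest p values belonged to PSMA7 (0.70 ± 0.35), PSMA3 (0.86 ± 0.52) and PSMD7 (0.43 ± 0.28). Of the 4 genes at or below 0, PSMD5 had -0.22 ± 0.26. PSMB5, PSMB6 and PSMB7 gave 0.04 ± 0.40, 0.06 ± 0.28 and 0.22 ± 0.26. The difference in counts between treatments, 24 against 16 genes that fell, is thus not shown to be a difference between treatments.

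The inducible subunits PSMB8, PSMB9 and PSMB10 replace PSMB5, PSMB6 and PSMB7 in the immunoproteasome, which interferon induces. At day 0, PSMB9 was 2.41-fold higher in treated animals (1.27 ± 0.16, limma adjusted p = 0.00413) and PSMB8 1.87-fold (0.90 ± 0.14, adjusted p = 0.0130). To set each beside its constitutive counterpart, the log2 difference of the pair was taken within each array. The pairs were chosen with the results for PSMB8 and PSMB9 known, so the values are a description, with no test. PSMB9 minus PSMB6 at day 0 was -4.50, -3.79, -4.44, -4.17 and -3.62 in control and -2.76, -2.81, -2.82, -2.75 and -2.58 in treated animals, with no overlap and a mean difference of 1.36 ± 0.18 SE.

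For PSMB8 minus PSMB5 the values at day 0 were -4.17, -3.88, -4.47, -4.06 and -3.90 in control and -3.54, -2.83, -3.45, -3.45 and -3.18 in treated animals. They did not overlap either, and differed by 0.80 ± 0.17. How often other pairs of genes do not overlap was not counted. PSMB10 minus PSMB7 differed by -0.37 ± 0.52, and by 0.13 without DE27, whose array held the lowest value (-4.96). At day 14 the differences were 0.50 ± 0.63, 0.83 ± 0.42 and 0.75 ± 0.48 for PSMB8, PSMB9 and PSMB10. Leaving out 1 animal at a time moved them between 0.19 (without K10) and 0.81 (without K6) for PSMB8, between 0.60 (without DE29) and 1.06 (without DE27) for PSMB9 and between 0.42 (without K3) and 1.06 (without K6) for PSMB10.

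Over storage 2 of the 5 genes of the inducible subunits and their activator passed, both as higher, against 31.6% of all probes. PSMB8 rose 2.09-fold (1.06 ± 0.17, higher in 10 of 10 animals) and PSMB9 1.67-fold (0.74 ± 0.18, higher in 8 of 10), while PSMB10 (0.41 ± 0.35) and the activator subunits PSME1 (-0.34 ± 0.16) and PSME2 (-0.12 ± 0.11) did not pass.

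Other genes of the pathway moved in both directions over storage, in a comparison where 23.1% of all tested probes fell and 31.6% rose. Of 6 tested genes for proteasome-associated proteins 4 fell, among them UCHL5 (-0.85 ± 0.13), a deubiquitinase of the cap, ECPAS (-0.65 ± 0.15), TXNL1 (-0.60 ± 0.16) and USP14 (-0.48 ± 0.13), also a deubiquitinase of the cap. Of 5 genes for ubiquitin and its activation 2 fell and 1 rose: the ubiquitin genes UBB (-1.37 ± 0.14, lower in 10 of 10 animals) and RPS27A (-1.02 ± 0.22), and the activating enzyme UBA6 (0.39 ± 0.13). Among genes for shuttle factors and the segregase, UBQLN1 (-0.81 ± 0.09), UBQLN2 (-0.79 ± 0.16) and UFD1 (-0.41 ± 0.17) fell, and UBQLN4 (0.25 ± 0.10) rose.

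Among 11 genes that control proteasome transcription 2 rose and 3 fell, where 31.6% of all probes rose and 23.1% fell. Neither count stands out from these shares. NFE2L1, the transcription factor that induces proteasome genes when proteasome activity is short, rose 3.41-fold (1.77 ± 0.16, higher in 10 of 10 animals, limma adjusted p = 5.39e-08). NGLY1, the glycanase that NFE2L1 needs for its activation, fell 2.43-fold (-1.28 ± 0.14, lower in 10 of 10). BACH1, a repressor at related sites, rose 2.16-fold (1.11 ± 0.21), and NFYB (-0.74 ± 0.15) and MAFK (-0.45 ± 0.12) fell. Among 5 muscle ubiquitin ligases TRIM63 (-0.98 ± 0.25) and FBXO30 (-0.73 ± 0.17) fell and FBXO40 (0.82 ± 0.22) rose over storage. FBXO32, the atrophy ligase atrogin-1, was the sole related gene besides PSMB8 and PSMB9 to pass at day 0, higher in treated animals (1.15 ± 0.20, limma adjusted p = 0.0188).

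The PSMG assembly chaperones of the core were found only through gene numbers, since the array lists them under older names, and were not counted as members. PSMG2 fell over storage (-1.04 ± 0.20), PSMG1 (-0.29 ± 0.13) and PSMG3 (-0.28 ± 0.12) did not pass, and PSMB11, the thymus-specific beta subunit, rose (0.44 ± 0.14).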

How the data were processed

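Total RNA was extracted with RNeasy columns and labelled with cyanine 3 for an Agilent bovine array, per the labels' protocols. The deposited files hold the scanner's processed signal, a background-corrected intensity per spot, per the file headers. The authors also deposited a table of intensity values normalized between arrays by a method not given in the sources used here; it served as an alternative. The submitters' processing notes name R 2.11.1.

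Values are log2 of the deposited processed signal, less the array's own 75th percentile, whose mean over arrays was added back. Outlier spots (935) were left out and the spots of a probe were averaged. Probes well above background on at least 5 of 20 arrays were tested (15430 of 21475). Names came from the file annotation matched to RefSeq gene tables. Where a whole group was not above background, the brighter group's mean was set against the mean, over the dim arrays, of the higher of the probe's own signal and the lowest signal well above background.

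Groups were compared with limma 3.58.1 (lmFit, eBayes) in R 4.3.3, with Benjamini-Hochberg adjustment and a threshold of 0.05, checked on simulated data. The simulated noise was independent between arrays, without slide or animal effects, so that check does not cover errors that such effects bring. Treatment and day came from titles and characteristics; a description field that contradicts the titles on day was not used, and the title of 1 treated day 0 sample with a shortened name was read as DE31. The 2 arrays of an animal are paired by its number; their deviations from the group means correlated with r between -0.15 and 0.28 over all probes. The number of arrays limits the precision. Alternatives covered scaling, background, filters, slide, scan session, animal as a block and leaving out each animal.

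The members, lists and tests were chosen with earlier results of these data known. Named were the active subunits in every comparison, up to 10 members of smallest p per direction that passed, or the 3 of smallest p where none passed, with up to 4 genes per direction of each related list. A gene of the shuttle factor list is not reported here. The values in every sample are those of the active subunits and of the 3 members of smallest p in certain comparisons. These were treatment at day 0, treatment at day 14, storage in all animals and the interaction. No sequences or promoters were used here. Figures were drawn with matplotlib 3.10.9.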

Additional observations from a re-analysis of the deposited data

Results flagged for a closer look

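Among 72 sets of 5 values checked, 5 held 1 value far from the others of its group, and chance gives about 1 in 20. PSMA3 in K10 at day 0 was at 10.64, with the other controls between 11.52 and 11.67. PSMD7 in K3 at day 0 was at 13.47, with the others between 12.98 and 13.07. The mean deviation of the 20S core in DE27 at day 0 was 0.202, with the other treated animals between 0.273 and 0.286. The difference of PSMB9 and PSMB6 in DE32 at day 0 was -2.58, with the others between -2.82 and -2.75. The difference of PSMB10 and PSMB7 in DE27 at day 0 was -4.96, with the others between -2.60 and -2.36. No gene moved one way in every control animal and the opposite way in every treated animal over storage.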

How the results depend on the processing

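None of the 39 genes passed a treatment or interaction comparison under the alternatives run. With the animal as a replicate block, the storage counts were 24 lower and 1 higher in control, 13 and 1 in treated and 26 and 2 in all animals, and the other calls did not change beyond POMP, PSMD13 and PSMD5. Median centring gave storage medians of -1.08 (control), -0.91 (treated) and -1.01 (all), and over all animals 1 gene that rose, as did the authors' table, the filter on all arrays, the slide as a block and leaving out PSMA8 with PSMB1. Normexp background correction gave 2, 3 and 4 genes that rose in control, treated and all animals, and PSMB1 at 0.802 in control animals. Over all animals 53.3% of all probes rose under that correction. With the slide as a block, 0 genes fell in control, 0 fell and 0 rose in treated and 6 fell in all animals, the treated median was -0.911 and PSMA8 over all animals was -0.317. Within slides and scan sessions, the storage median was -1.06 (control) and -0.384 (treated) in session 1 and -0.911 (treated) on slide 5. The treatment median was -0.106 at day 0 on slide 6, which is session 3, and at day 14 it was 0.614 on slide 2 and in session 1, 0.556 on slide 4 and -0.550 on slide 5. The difference of core and cap medians at day 0 was 0.329 on slide 6 and -0.0295 in session 2, and at day 14 -0.200 on slide 5. Over storage that difference was -0.224 in control animals (slide block, slide 6 and session 3), -0.358 in treated animals (slide block and slide 5) and -0.303 (session 2), and -0.215 (slide 5) and -0.468 (session 1) in all animals. Leaving out 1 animal at a time, 4 (without DE32) to 21 (without DE27) genes fell in treated animals, where 5.5% and 15.3% of all probes fell, and 1 to 2 rose. In control animals 17 (without K9) to 26 (without K10) fell, where 9.38% and 18.7% of all probes fell. In all animals 24 to 30 fell and 1 to 2 rose, and 25.3% of all probes fell without DE27, which gave the 30. The interaction's core and cap difference was -0.0753 to 0.067. The cause of these changes was not tested. The slide block and within-slide values were not run for the average over days, whose arrays span slides. Signal over background limits PSMB1 and PSMA8.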
